A study of Homo sapiens with 9 samples.

Results

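The Fc receptor-like genes FCRL1, FCRL2, FCRL3, FCRL4, FCRL5 and FCRLA, together with FCGR2B, were followed in P493-6, an established human B-cell line with adjustable amounts of the transcription factor MYC. The members were all probe sets whose single gene symbol in the platform annotation was one of these names. All 7 genes were found, as 21 of 54675 probe sets, and were 7 of the 19775 genes measured. The 9 arrays fall into 4 labelled high Myc expression, 3 labelled low Myc expression and 2 labelled no Myc expression, and the design compares these levels. The labels state no treatment, time or culture for any group, so each p-value reflects how far these arrays scatter, possibly for technical reasons alone. All 3 groups share the same line. As background, its introduced MYC gene is repressed by tetracycline, and its viral regulator EBNA2 works only with estrogen, whose presence the labels do not state.

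Fc receptor-like proteins are relatives of the classical immunoglobulin receptors and are made mainly by B cells. Most are surface proteins whose tails carry tyrosine motifs. Once phosphorylated by Src-family kinases, inhibitory motifs (ITIMs) recruit phosphatases such as PTPN6 and INPP5D and dampen signals of the B-cell receptor, whereas ITAM-like motifs can recruit activating kinases such as SYK. FCRL4 marks a tissue-based memory B-cell population and FCRL5 is found on memory and plasma cells.

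Values are log2 of the deposited intensity, which shows changes relative to the rest of each array. MYC was read first as a check of the labels. Its intensity lay between 11326 and 15404 on the high Myc arrays and between 1443 and 2526 in the low Myc group. In the library labelled no Myc replicate 1 it read 2803, more than any low Myc array did. The other no Myc array read 416. MYC in the library labelled no Myc replicate 1 thus went against its label, and the members' results against no Myc are given with and without it where the call changed. Where the text gives a call of another named gene against no Myc that was lost without it, this is stated with that gene or its list. High Myc replicate 2 stood apart from its group in another way. Its mean correlation across genes with the low Myc arrays was 0.979, against 0.962 to 0.968 for the other high Myc arrays. Median intensities ran from 75.3 to 80.3 per array. GAPDH read higher near its 3′ than its 5′ end on every array. This log2 gap was 0.25 and 0.42 in no Myc, against 0.01 to 0.24 elsewhere. For ACTB the same gap did not set no Myc apart. It was 0.004 in no Myc replicate 1 and -0.01 in replicate 2, inside the range of -0.07 to 0.19 over high and low Myc. The part of these gaps in the differences below was not tested.

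The B-cell label was borne out by its markers. The 9 B-cell markers measured were CD79A, CD79B, MS4A1, PAX5, CD22, BLK, BANK1, CD74 and HLA-DRA. Their summed intensity was 27809 to 34203 in high Myc, 32957 to 36424 in low Myc and 52586 to 62105 in no Myc. CD74 (13.45 to 14.19, log2) and HLA-DRA (12.84 to 13.83) weighed most in these sums. The markers did not all move alike. The low Myc means of BANK1 (7.70) and BLK (9.14) were above their no Myc means (7.01 and 8.98). CD22 was close, at 11.20 in low Myc and 11.27 in no Myc, and the other markers had clearly lower means in low Myc. Of the 9 markers, 8 were lower in high Myc and 5 in low Myc than in no Myc by limma (adjusted p under 0.05). Of all genes, 9% and 8.55% were. Without no Myc replicate 1 these counts were 2 and 2, and without no Myc replicate 2 the second was 3. The 11 myeloid markers summed to 637 to 722, 597 to 660 and 1917 to 2768 in the same order. Of these, 2, LYZ and ITGAM, were lower in high and in low Myc than in no Myc, and the other 9 were not called. Of all genes, 9% and 8.55% were lower. LYZ read 9.60 and 8.38 (log2) in no Myc and ITGAM 10.53 and 10.06. In high and low Myc LYZ read 4.49 to 6.09 and ITGAM 6.64 to 7.39, so these 2 weighed most in the rise of the sum. CD14 read 5.13 to 5.63 (log2) and CSF1R 5.18 to 5.84 on all 9 arrays and neither was called. The 13 markers of T and NK cells summed to 1238 to 1560, 1257 to 1497 and 1512 to 1769. The part of these marker changes in the results on Fc receptors was not tested.

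All 7 genes read highest in the no Myc group. Against high Myc, 6 of the 7 were lower in high Myc by limma at an adjusted p under 0.05, where 9% of all genes were lower and 23.2% differed in either direction. Against low Myc, 5 of the 7 were lower in low Myc, where 8.55% of all genes were lower and 19.8% differed. The median log2 difference over the 7 genes was -2.19 for high Myc and -1.86 for low Myc, against -0.01 and 0.00 over all genes. In both comparisons every no Myc value lay above every value of the other group for 7 of 7 genes. Such a separation in that direction was found for 17.8% and 17.6% of all genes. Over probe sets it held for 18 and 20 of 21, and for 17.4% and 18.5% of all probe sets. Both comparisons share the same 2 no Myc arrays. Fewer cells making a gene and less RNA per cell cannot be told apart in such bulk samples.

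**Figure D1:**
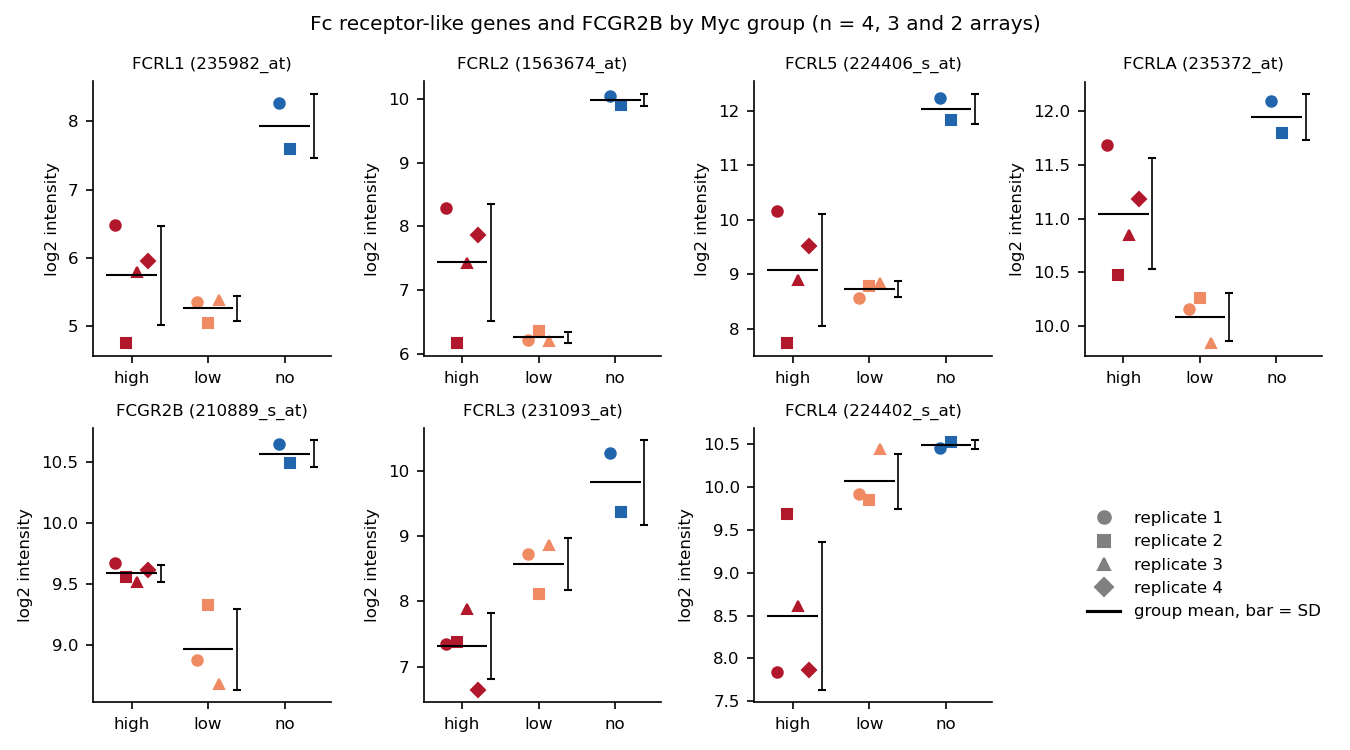
Log2 intensity of the 7 genes (vertical axis) on each array by Myc group (horizontal axis), for the probe set that stands for the gene; marker shapes are replicate numbers, lines are group means and bars are SDs. The no Myc arrays are highest in each panel, high Myc replicate 2 is the lowest high Myc array for FCRL1, FCRL2, FCRL5 and FCRLA, and it is the highest for FCRL4.

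Because all 7 genes read highest in no Myc, though not all were called, their promoter windows were read from the RefSeq table for GRCh38.p14. All 7 genes matched, with 8 windows, each from 250 bases before to 50 after a transcript start, of which FCGR2B has 2. The core of ETS-family sites, ACTTCC read on either strand, was found in 6 of the 8 windows and in 22.8% of the 35116 windows of that length in the table. In the same 6 windows it lay within the last 100 bases before the start and on the strand of the gene, as in 4.92% of all windows. ETS factors such as PU.1 are known regulators of B-cell and myeloid genes. The core was picked out after reading these windows, so the 100-base limit and the strand were not set beforehand either. Related genes can also share promoter sequence by descent, so both counts are descriptions. The 100 bases before the start are printed for the 6 windows that hold the core, with the core in capitals.
FCRL1 (chr1:157820121-157820220, minus strand): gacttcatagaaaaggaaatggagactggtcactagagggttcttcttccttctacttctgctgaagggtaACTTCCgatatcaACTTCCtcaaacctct
FCRL2 (chr1:157777133-157777232, minus strand): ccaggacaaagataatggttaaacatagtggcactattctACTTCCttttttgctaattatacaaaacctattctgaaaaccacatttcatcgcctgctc
FCRL5 (chr1:157552516-157552615, minus strand): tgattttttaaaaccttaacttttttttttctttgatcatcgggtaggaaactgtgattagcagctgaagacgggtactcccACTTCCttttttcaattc
FCRLA (chr1:161707129-161707228, plus strand): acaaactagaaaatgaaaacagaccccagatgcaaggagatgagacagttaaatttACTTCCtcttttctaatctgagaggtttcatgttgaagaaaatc
FCGR2B, window 2 (chr1:161663043-161663142, plus strand): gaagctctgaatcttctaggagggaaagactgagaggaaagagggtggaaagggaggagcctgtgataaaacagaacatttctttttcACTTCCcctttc
FCRL4 (chr1:157598086-157598185, minus strand): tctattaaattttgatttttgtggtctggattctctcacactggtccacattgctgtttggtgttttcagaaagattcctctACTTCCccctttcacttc
In FCRL2 and FCRL5 the core runs on into the same run of T bases. The FCRL3 window held no ACTTCC, and neither did window 1 of FCGR2B.

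3 further motifs were searched on both strands in the full windows. The MYC-type E-box CACGTG was in 0 of the 8 windows and in 7.26% of all windows. The core TGGGAA, bound by RBPJ, the DNA-binding partner of EBNA2, was in 3 of 8 (FCRL3, FCRL5 and window 2 of FCGR2B) and in 24% of all windows. The octamer ATGCAAAT was in 0 of 8 and in 1.77% of all windows. No match to one of these motifs overlapped a match to another in the member windows.

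FCRL5, a receptor that binds IgG and carries ITIMs, had the largest difference between no Myc and high Myc among the 7 genes. It read 10.15, 7.73, 8.90 and 9.53 on high Myc arrays 1 to 4, 8.57, 8.78 and 8.85 on the low Myc arrays, and 12.22 and 11.83 on the no Myc arrays. The no Myc arrays stood above all others, and the low Myc values lay inside the wide high Myc range. High Myc (9.08 ± 1.03, SD, n = 4) was below no Myc (12.03 ± 0.28, SD, n = 2) by 7.73-fold, a log2 difference of -2.95 ± 0.54 (SE) with limma adjusted p = 0.00363. Low Myc (8.73 ± 0.15, SD, n = 3) was below no Myc by 9.83-fold (-3.30 ± 0.56, adjusted p = 0.00375). High and low Myc differed by 0.35 (95% interval -0.73 to 1.42, adjusted p = 0.867), and by -0.01 without high Myc replicate 1. Of the 4 other FCRL5 probe sets, 3 gave differences of -2.87 to -3.49 against no Myc for high Myc and -3.07 to -3.77 for low Myc. The remaining one, 1555799_at, gave -0.55 and -0.56 and was called in neither comparison. The largest differences came from 231647_s_at. Its call against no Myc was lost in 2 of 9 fits that left out 1 array for high Myc and in 5 for low Myc. Probe set 224405_at was near the lowest intensities on high Myc replicate 2, at 4.24.

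FCRL2, which carries both ITIM and ITAM-like motifs and is known from memory B cells, showed the largest difference between low Myc and no Myc. Its values were 8.29, 6.16, 7.42 and 7.86 in high Myc, 6.22, 6.36 and 6.19 in low Myc, and 10.06 and 9.92 in no Myc. In high Myc 3 arrays lay well above the low Myc arrays, and replicate 2 lay below all of them. FCRL2 was 5.87-fold lower in high than in no Myc (-2.55 ± 0.47, adjusted p = 0.00404) and 13.3-fold lower in low Myc (-3.73 ± 0.50, adjusted p = 0.00134). High Myc exceeded low Myc by 1.18 ± 0.42, which was not called (adjusted p = 0.18), and by 1.60 without high Myc replicate 2, which was (adjusted p = 0.00299). All 5 FCRL2 probe sets were called lower in both comparisons with no Myc, with log2 differences of -0.60 to -2.55 for high Myc and -0.78 to -3.73 for low Myc. The smallest differences came from 224192_at and 224194_at.

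FCRL1, the family member with ITAM-like motifs only and a co-activator of the B-cell receptor, followed the same course at low intensity. It read 6.48, 4.74, 5.79 and 5.96 in high Myc, 5.35, 5.04 and 5.37 in low Myc, and 8.27 and 7.60 in no Myc. The value of high Myc replicate 2 was the lowest of the 9 arrays. Readings this close to the lowest intensities do not give exact folds. FCRL1 was 4.57-fold lower in high than in no Myc (-2.19 ± 0.41, adjusted p = 0.00405) and 6.40-fold lower in low Myc (-2.68 ± 0.43, adjusted p = 0.00277). Leaving out the library labelled no Myc replicate 1 ended the first call (-1.86, adjusted p = 0.0575). High and low Myc differed by 0.49 (95% interval -0.33 to 1.30, adjusted p = 0.64). The second probe set gave -1.79 and -2.62 against no Myc.

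FCRLA, an intracellular relative that binds immunoglobulin in the endoplasmic reticulum, kept a graded order of no, high and low Myc. Its values were 11.69, 10.48, 10.85 and 11.18 in high Myc, 10.15, 10.26 and 9.84 in low Myc, and 12.10 and 11.79 in no Myc. In this probe set no group overlapped another, and high Myc replicate 1 came close to the no Myc arrays. In 235400_at and 235401_s_at high and no Myc overlapped, and in 235401_s_at high and low Myc did too. FCRLA was 3.63-fold lower in low Myc than in no Myc (-1.86 ± 0.31, adjusted p = 0.00319). Its difference between high and no Myc, -0.90 ± 0.29, was not called (adjusted p = 0.0561), but was without high Myc replicate 1 (-1.11, adjusted p = 0.00864) and under 3 of 10 other settings. High Myc exceeded low Myc by 0.96 ± 0.26 without passing the test (adjusted p = 0.0814), and passed it without high Myc replicate 2 (1.15, adjusted p = 0.0197). All 3 FCRLA probe sets were called lower in low Myc than in no Myc (-1.86 to -1.99), and none was called between high and no Myc (-0.71 to -0.91).

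FCGR2B, the ITIM-bearing receptor for IgG complexes that restrains the B-cell receptor, had the least scattered values in high Myc. It read 9.67, 9.56, 9.51 and 9.62 in high Myc, 8.88, 9.33 and 8.68 in low Myc, and 10.64 and 10.49 in no Myc. The 3 groups did not overlap, in the order no, high and low Myc. FCGR2B was 1.97-fold lower in high than in no Myc (-0.98 ± 0.16, adjusted p = 0.00239) and 3.04-fold lower in low Myc (-1.60 ± 0.17, adjusted p = 0.000644). High Myc exceeded low Myc by 0.63 ± 0.14 (adjusted p = 0.052, not called), and by 0.81 without low Myc replicate 2 (adjusted p = 0.00857, called). The gene has 1 probe set here, 210889_s_at, and its near-identical relatives FCGR2A and FCGR2C can share signal with it. Of the 3 FCGR2C probe sets, 210992_x_at and 211395_x_at were also lower in both comparisons with no Myc (-0.75 and -0.75 for high Myc, -0.93 and -1.23 for low Myc). With no Myc replicate 1 left out, FCGR2C as a gene was no longer called between high and no Myc (-0.50, adjusted p = 0.153). The third, 211396_at, differed by 0.06 and -0.15 and was not called. FCGR2A, an activating receptor of myeloid cells, was lower in high and low Myc by log2 differences of -1.33 ± 0.11 and -1.58 ± 0.12 (adjusted p = 0.000139 and 0.000247), and its dim second probe set differed by -0.07 and -0.04.

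FCRL3, a receptor with ITIM and ITAM-like motifs, was lowest in high Myc and intermediate in low Myc. It read 7.34, 7.38, 7.88 and 6.64 in high Myc, 8.74, 8.12 and 8.87 in low Myc, and 10.29 and 9.37 in no Myc. The 3 groups did not overlap in this probe set, while in 1553196_a_at high and low Myc did. FCRL3 was 5.73-fold lower in high than in no Myc (-2.52 ± 0.37, adjusted p = 0.00118). Low Myc was below no Myc by a log2 difference of -1.25 ± 0.39, which missed the threshold (adjusted p = 0.0514) but was called under 5 of 10 other settings, and was -0.80 with no Myc replicate 1 left out (adjusted p = 0.392). High Myc was below low Myc by a log2 difference of -1.26 ± 0.32, also not called (adjusted p = 0.0721). The second probe set, 1553196_a_at, gave -1.18, -0.67 and -0.51 in the 3 comparisons, of which the first was called.

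FCRL4, an ITIM-bearing receptor for IgA, read nearly as high in low Myc as in no Myc. Its values were 7.84, 9.68, 8.61 and 7.86 in high Myc, 9.92, 9.85 and 10.44 in low Myc, and 10.46 and 10.53 in no Myc. High Myc replicate 2 read close to the low Myc arrays, and 3 high Myc arrays lay far below. FCRL4 was 3.99-fold lower in high than in no Myc (-2.00 ± 0.46, adjusted p = 0.0124). That call was lost when either no Myc array was left out (-2.03 with adjusted p = 0.0814 for the first, -1.96 with 0.08 for the second). Low Myc and no Myc differed by -0.43 (95% interval -1.53 to 0.68, adjusted p = 0.718). High Myc was below low Myc by a log2 difference of -1.57 ± 0.41 (adjusted p = 0.0758, not called), and was -1.97 without high Myc replicate 2 (adjusted p = 0.00248, called). The 3 FCRL4 probe sets spanned -1.80 to -2.01, -0.11 to -0.52 and -1.49 to -1.69 in the comparisons of high with no, low with no and high with low Myc.

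Between high and low Myc the family split by direction, without a call. By limma 0 of the 7 genes passed, where 3.6% of all genes did, and 5 of the 7 had an unadjusted p under 0.05, as did 16.5% of all genes. FCRL1, FCRL2, FCRL5, FCRLA and FCGR2B read higher on average in high Myc, and FCRL3 and FCRL4 read lower. In the probe sets that stand for the genes, FCRLA and FCGR2B lay wholly above the low Myc arrays (8.06% of all genes did). FCRL3 and FCRL4 lay wholly below them (4.66%). Without high Myc replicate 2, FCRL2, FCRLA and FCRL4 were called, the first 2 of them higher and FCRL4 lower in high Myc. FCGR2B was called higher when quantile normalization was repeated (0.54, adjusted p = 0.0343) and when dim genes were filtered out (adjusted p = 0.0464). Whether the differences of the genes differed from one another was not tested.

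**Figure D2:**
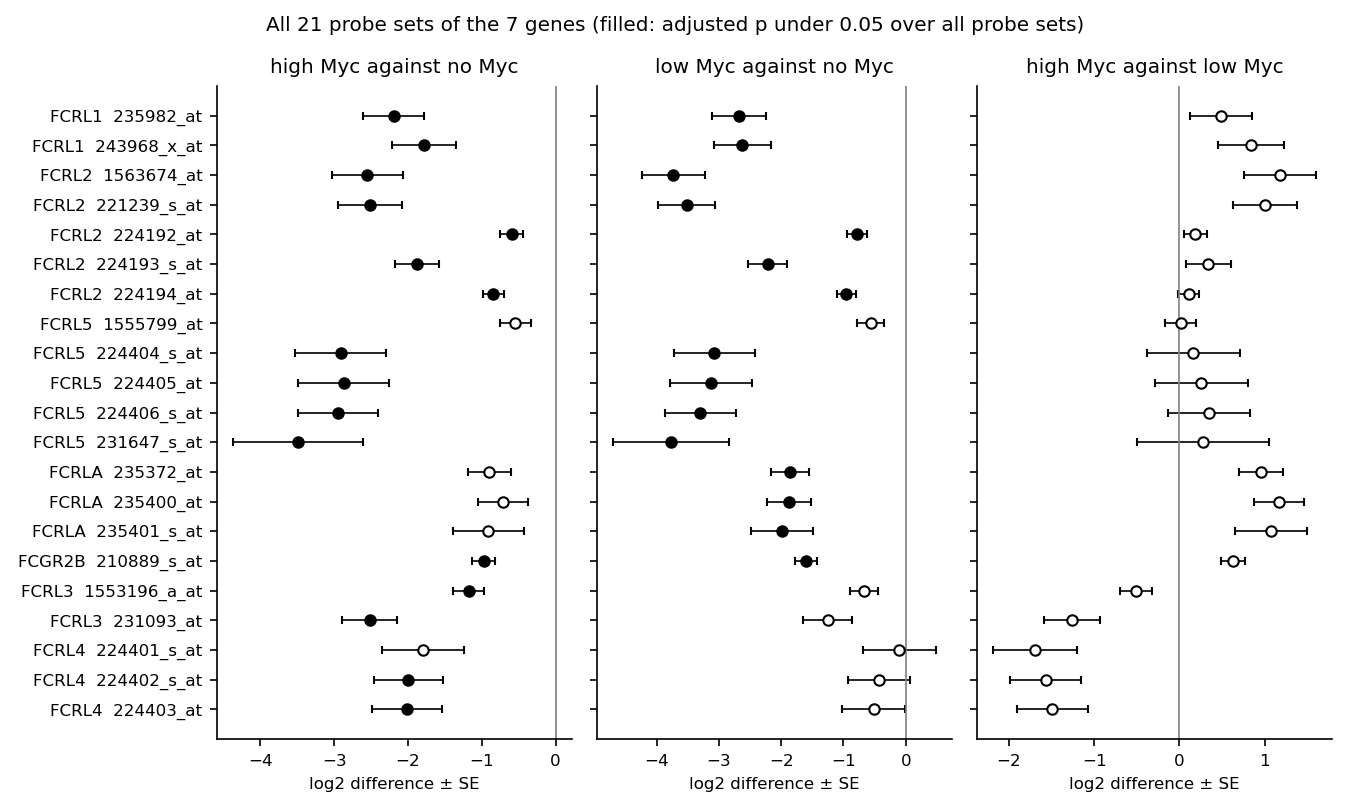
Log2 difference ± SE (horizontal axis) for each of the 21 probe sets (vertical axis) in the 3 comparisons; filled points have an adjusted p under 0.05 over all 54675 probe sets. Points lie left of zero throughout the 2 comparisons with no Myc, and between high and low Myc the FCRL3 and FCRL4 probe sets lie left of zero and the other 16 right of it.

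Over probe sets, 16 of the 21 were called lower in high than in no Myc (7.79% of all probe sets were). In low Myc 15 of 21 were called lower than in no Myc (7.66%). Between high and low Myc 0 of 21 were called by limma (1.57%), with 11 of 21 at an unadjusted p under 0.05 (13% of all probe sets). All 21 differences against no Myc were negative in both comparisons. Without the library labelled no Myc replicate 1 these counts were 4, 5 and 0, with the no Myc group resting on 1 array that was assumed to vary like the others. The 3 FCRL4 probe sets were not called between low and no Myc and were lower in no Myc replicate 1 than in no Myc replicate 2, by 0.04 to 0.14. The other 18 were higher in no Myc replicate 1, by 0.14 to 0.91, where 50.7% of all probe sets were.

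Within high Myc, replicates 1 and 2 lay at opposite ends for most member probe sets. High Myc replicate 2 was the lowest of the 4 arrays for 14 of the 21 probe sets, where it was lowest for 30.6% of all probe sets. High Myc replicate 1 was the highest for 16 of the 21, among them all 14 of these, and for 34.2% of all probe sets. The 14 were both FCRL1, 4 of the 5 FCRL2, all 5 FCRL5 and all 3 FCRLA probe sets. High Myc replicate 2 was the highest for all 3 FCRL4 probe sets, by 1.58 to 1.85 above the mean of the other 3 arrays. For FCRL5 its log2 difference from the mean of the other 3 was -1.79 in the probe set that stands for the gene and -3.25 in 231647_s_at. FCGR2B and FCRL3 did not share this, with high Myc replicate 2 at -0.04 and 0.09 from the mean of the others. CR2, the complement receptor of the B-cell co-receptor complex, read 7.21 on this array and 5.49 to 5.65 on the other high Myc arrays, and 8.86 to 9.69 in low Myc.

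**Figure D3:**
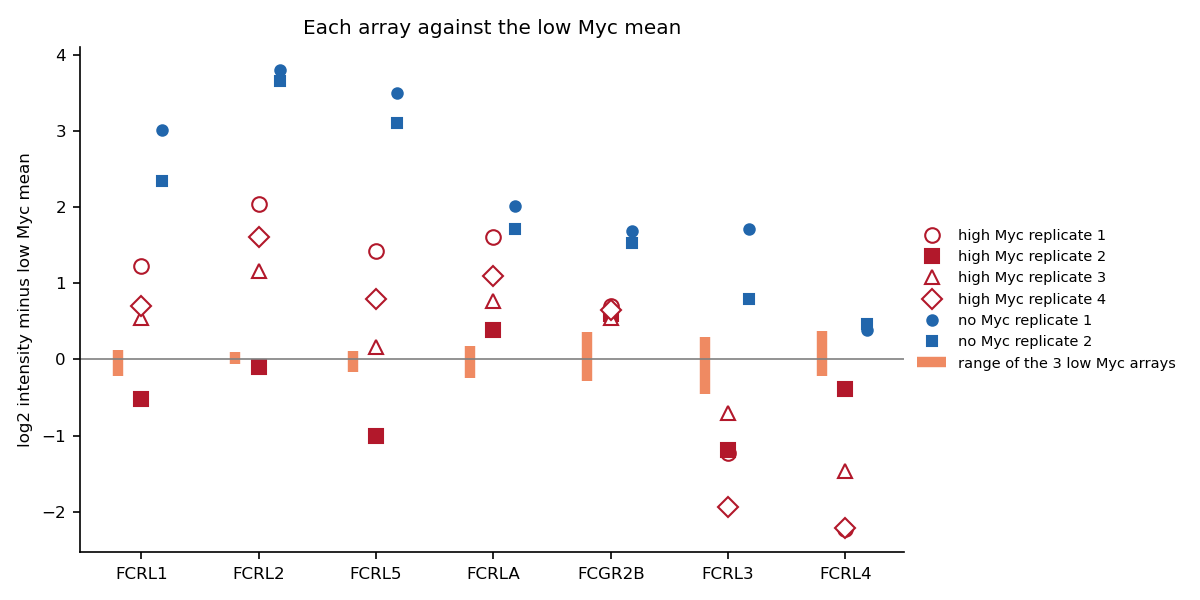
Log2 intensity of each high Myc and no Myc array minus the mean of the 3 low Myc arrays (vertical axis) for the 7 genes (horizontal axis); the thick bars span the low Myc arrays. High Myc replicate 2 (filled squares) is below the low Myc bar for FCRL1, FCRL2 and FCRL5 and above the other high Myc arrays for FCRL4.

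Other Fc receptors were counted in the same way. Of 14 measured, 6 were lower in high Myc and 6 in low Myc than in no Myc, where 9% and 8.55% of all genes were. None was higher, against 14.2% and 11.3% of all genes. FCMR, the receptor for IgM, was lower in high and low Myc than in no Myc by log2 differences of -2.07 ± 0.60 and -2.60 ± 0.64 (adjusted p = 0.0355 and 0.0193), with the first call lost in 3 of 9 fits that left out 1 array and the second in 3. FCER2, the low-affinity IgE receptor, was lower in high than in no Myc (-1.78 ± 0.25, adjusted p = 0.00103) and than in low Myc (-2.07 ± 0.22, adjusted p = 0.00272), while low and no Myc differed by 0.29 ± 0.27 (adjusted p = 0.622). FCRLB, the intracellular relative of FCRLA, was lower in low Myc than in no Myc (-0.86 ± 0.22, adjusted p = 0.0232) and not in high Myc (-0.37 ± 0.21, adjusted p = 0.293). The FCRLB call was lost with no Myc replicate 1 left out (-0.65, adjusted p = 0.208) and without low Myc replicate 1 or 2. FCRL6 was also looked for, but no probe set had it as its single gene symbol.

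Partners that act on the tyrosine motifs were counted next. Of 11 kinases, 5 were lower in high than in no Myc and 0 higher by limma (9% and 14.2% of all genes). Between low and no Myc 5 were lower and 1 was higher (8.55% and 11.3% of all genes). The counts of lower kinases were 0 and 1 without no Myc replicate 1. Without no Myc replicate 2 they were 2 and 3, and omitting replicate 3 of high Myc, or replicate 1 of low Myc, also brought the second to 3. SYK, which docks on ITAMs, read 10.03 to 11.29 in high Myc, 8.80 to 9.55 in low Myc, and 12.63 and 12.23 in no Myc. Its 3 groups did not overlap, and it was lower in high and low Myc than in no Myc by log2 differences of -1.68 ± 0.34 and -3.14 ± 0.36 (adjusted p = 0.00621 and 0.000793). The first call was lost with no Myc replicate 1 left out (-1.48, adjusted p = 0.075). The difference of SYK between high and low Myc, 1.47 ± 0.30 (adjusted p = 0.0351), lost its call in 8 of 9 fits that left out 1 array. LYN, the kinase that phosphorylates ITIMs in B cells, was lower in high and low Myc than in no Myc by log2 differences of -1.08 ± 0.21 and -1.05 ± 0.22 (adjusted p = 0.00529 and 0.0104), and both calls were lost in 1 of those fits, the one that left out no Myc replicate 1, with adjusted p of 0.0737 and 0.111. BLK, another Src-family kinase, was lower in high than in no Myc (-1.66 ± 0.47, adjusted p = 0.0318), and not in 4 of those fits, and FYN was higher in low Myc than in no Myc (1.22 ± 0.36, adjusted p = 0.0419), and not in 6.

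Of 13 phosphatases and adaptors, 5 were lower and 1 higher in high than in no Myc (9% and 14.2% of all genes). In low Myc 6 were lower and 1 higher than in no Myc (8.55% and 11.3% of all genes). Without no Myc replicate 1 the counts of lower genes were 3 and 2, and without low Myc replicate 1 the second was 3. PTPN6, the phosphatase SHP-1, was lower in high and low Myc than in no Myc by log2 differences of -1.86 ± 0.29 and -1.26 ± 0.31 (adjusted p = 0.00179 and 0.0196). The second call was lost with no Myc replicate 1 left out (-0.99, adjusted p = 0.179) and with low Myc replicate 1 left out. INPP5D, the inositol phosphatase SHIP through which FCGR2B signals, read 9.70 to 10.16 in high Myc, 9.83 to 10.47 in low Myc, and 11.51 and 11.41 in no Myc, and was lower in high and low Myc than in no Myc by log2 differences of -1.48 ± 0.19 and -1.30 ± 0.20 (adjusted p = 0.000594 and 0.00211). PTPN11, the related phosphatase SHP-2, was the higher one, in high Myc (0.90 ± 0.21, adjusted p = 0.0114) and in low Myc (0.72 ± 0.22, adjusted p = 0.0456). When each of the 9 arrays was omitted in turn, the low Myc call held in 1 fit, the one without low Myc replicate 3, and in 4 of 10 other settings. The high Myc call was lost without no Myc replicate 2 (adjusted p = 0.11) and in 2 of 10 other settings. PTPN11 was named after its value was seen. SOS1, an exchange factor for RAS, had differences of -0.93 ± 0.14 and -1.88 ± 0.15 against no Myc and of 0.96 ± 0.12 between high and low Myc (adjusted p = 0.00149, 0.00032 and 0.00617). The adaptor DOK3 was lower in low Myc than in no Myc (-1.79 ± 0.47, adjusted p = 0.0259), a call lost without either no Myc array or low Myc replicate 1 and in 5 of 10 other settings, and not called in high Myc (-0.91 ± 0.44, adjusted p = 0.22), with 0.89 ± 0.39 between high and low Myc (adjusted p = 0.306).

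Other inhibitory receptors of B cells were mixed. In high Myc 7 of 13 were lower than in no Myc and none was higher (9% and 14.2% of all genes). In low Myc 4 were lower and 1 was higher (8.55% and 11.3% of all genes). Without no Myc replicate 1 the count of lower genes in high Myc was 3, and without either no Myc array the higher one in low Myc was lost. CD72, which recruits PTPN6, read 6.03 to 8.33 in high Myc, 5.67 to 6.12 in low Myc, and 10.93 and 10.60 in no Myc, a gap of -3.52 ± 0.56 and -4.86 ± 0.59 (adjusted p = 0.00182 and 0.000955). SIGLEC10, a sialic acid-binding receptor, was lower in high and low Myc than in no Myc by log2 differences of -1.67 ± 0.16 and -2.02 ± 0.17, and the adaptor SIT1 by -1.05 ± 0.26 and -1.48 ± 0.27. Both SIT1 calls were lost with no Myc replicate 1 left out (adjusted p = 0.151 and 0.0608). BTLA was higher in low Myc than in no Myc (1.65 ± 0.37, adjusted p = 0.0133) and than in high Myc, with a difference of -1.97 ± 0.31 for high minus low (adjusted p = 0.0141). The first call was lost without either no Myc array, and the second without replicate 4 of high Myc or replicate 1 of low Myc.

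In the B-cell receptor and co-receptor list, 6 of 10 genes were lower in high than in no Myc (9% of all genes were). In low Myc 6 were lower and 1 was higher (8.55% and 11.3% of all genes). Without no Myc replicate 1 the counts of lower genes were 1 and 3. The receptor's signalling chains CD79A (-1.57 ± 0.31 and -2.00 ± 0.32) and CD79B (-2.20 ± 0.34 and -2.82 ± 0.36) were lower in both, and the first CD79A call was lost with no Myc replicate 1 left out (adjusted p = 0.0659). With the median of its probe sets CD79B gave -0.02 and -0.18 and was not called. PRKCB, a kinase downstream of the receptor, was lower in high Myc (-1.55 ± 0.36, adjusted p = 0.0129; lost without either no Myc array), with low and no Myc at -0.16 ± 0.38 (adjusted p = 0.89). CR2 was the higher one in low Myc, by 3.61 ± 0.49 over no Myc (adjusted p = 0.00141), with high minus low Myc at -3.38 ± 0.41 (adjusted p = 0.00456). A list of 11 genes linked to memory B cells that bear FCRL4 or FCRL5 did not separate genes high and low in them. Of these 11 genes, 3 were lower in high than in no Myc (9% of all genes). In low Myc 2 were lower and 1 higher than in no Myc (8.55% and 11.3% of all genes). Leaving out each array in turn these counts ran over 2 to 4, 1 to 2 and 0 to 2. CD27, a memory marker, was lower in high and low Myc than in no Myc by log2 differences of -1.34 ± 0.25 and -2.80 ± 0.27, CCR1 by -1.10 ± 0.34 and -1.19 ± 0.36, and the integrin ITGAX was lower in high Myc (-0.88 ± 0.17, adjusted p = 0.00481). CCR1 was not called in 7 and 6 of the 9 fits that left out 1 array. The costimulator CD80 was higher in low Myc than in no Myc by 1.64 ± 0.49 (adjusted p = 0.0461), a call lost in 7 of those fits. The fit with no Myc replicate 1 left out was among those that ended the calls of FCMR, BLK, FYN, CCR1 and CD80 against no Myc.

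**Figure D4:**
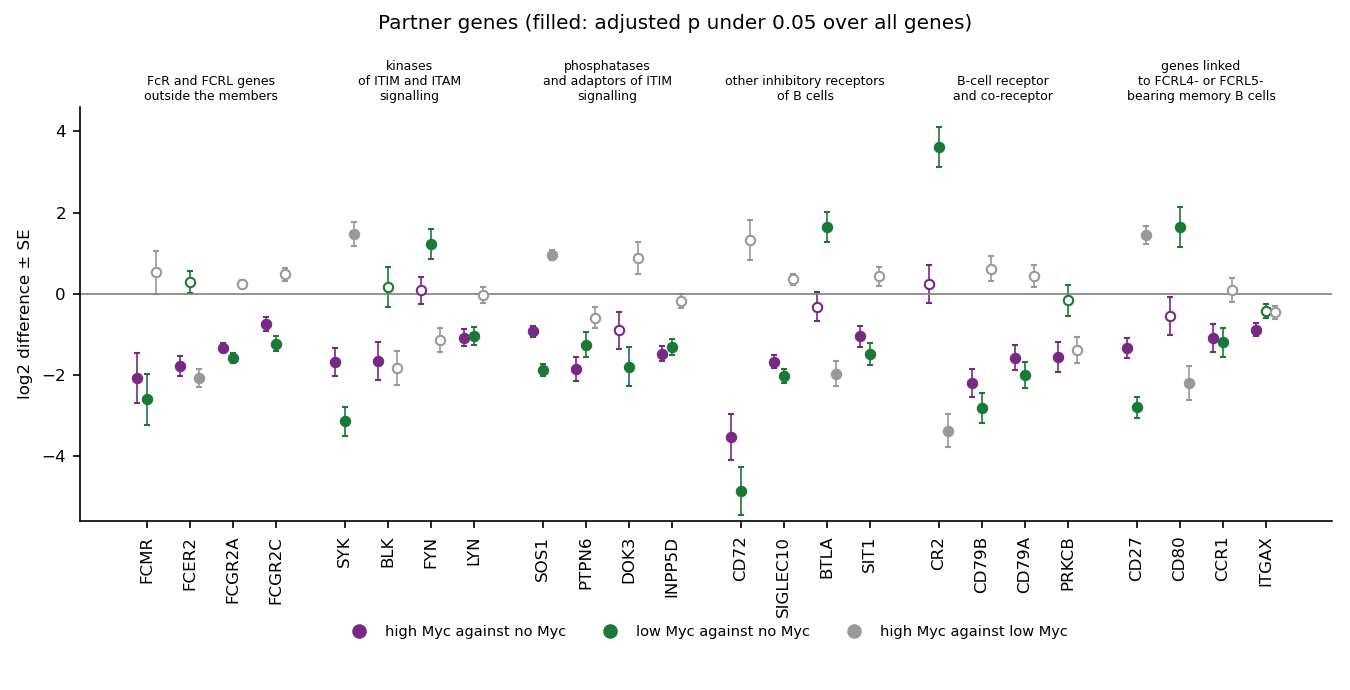
Log2 difference ± SE (vertical axis) of the genes named from 6 lists (horizontal axis) in the 3 comparisons; filled points have an adjusted p under 0.05 over all genes. CD72, SYK, CD79B and CD27 are lower in both groups than in no Myc, and CR2, BTLA and CD80 are higher in low Myc than in no Myc.

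On the chromosome FCRL5, FCRL4, FCRL3, FCRL2 and FCRL1 lie next to each other, and FCGR2B and FCRLA lie together further along, in the gene order of the RefSeq table for GRCh38.p14. Of the 10 nearest measured genes outside the first cluster, 5 on each side, 2 were lower in high Myc and 1 in low Myc than in no Myc, and none was higher, against 9% and 8.55% of all genes lower. CD1D, which presents lipid antigens, was lower in both (-3.28 and -3.66, adjusted p = 8.83e-05 and 0.000127) and ARHGEF11 in high Myc (-0.80, adjusted p = 0.00549). Of the 10 nearest FCRLA, 3 and 4 were lower and 1 was higher in each comparison, where 14.2% and 11.3% of all genes were higher. The lower ones were FCGR2A, FCGR2C and HSPA6, an inducible heat shock gene, in both and FCRLB in low Myc, and DUSP12 was the higher one. CD1D, ARHGEF11, HSPA6 and DUSP12 were named after their values were seen.

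The genes whose values over the 9 arrays were most like those of each member, among 17234 genes with a mean log2 of at least 5, were found by Pearson's r as a description. The arrays fall into 3 groups and share 1 normalization, so a high r reflects group levels in large part. FCRL1 was nearest to CD79A (r = 0.993), then BBIP1 and ATP2B1-AS1. FCRL5 was nearest to MRTFA (0.99), then ATP2B1-AS1 and FMNL1, and FCRL2 to RHBDF2 (0.993), FCHSD2 and HIP1R. FCRLA was nearest to PHKB (0.989), APBB1IP and PAIP2, and FCGR2B to FLT1 (0.993), TRIM25 and ZNF33A. FCRL3 was nearest to TFEB (0.977), SNX11 and NCOA7. FCRL4 was nearest to IER5 (0.985), MYH9 and CD44, and the group means of these 3 ran from low in high Myc to high in no Myc, as 10.54, 11.36 and 11.62 for IER5 and 11.18, 12.00 and 12.21 for CD44.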

How the data were processed

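RNA of P493-6 cells was extracted with Qiagen RNeasy, labelled with biotin and hybridised to Affymetrix arrays, per the labels. The authors deposited intensity values on a linear scale, made with RMA according to the submitters' processing notes. The RMA version is not given in the sources used here. The method gives arrays a common distribution of probe values before these are summarised per probe set, so a change in total RNA per cell is not seen. The deposited values per probe set still differed a little in distribution, with array medians of 75.3 to 80.3. Log2 of the intensity was used. Of 54675 probe sets, 41097 had 1 gene symbol, 1801 several and 11777 none. No probe set with several symbols named a member. A gene was represented by its probe set with the highest mean.

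limma 3.58.1 in R 4.3.3 was fitted to all 9 arrays (lmFit, eBayes, 6 residual degrees of freedom), once over 19775 genes and once over all probe sets, two-sided, with Benjamini-Hochberg adjustment and calls at an adjusted p under 0.05. The procedure was tested on simulated data. The number of arrays limits the precision. Named were all members, up to 4 called genes per list with the largest differences, the 3 most alike genes per member, and FCRLB. The counting of chromosomal neighbours was limited to measured genes. Genes and lists were chosen with earlier results of these data known. Alternatives were repeated quantile normalization, median centring, a filter at a mean log2 of 5, an offset of 16, the median of probe sets, another prior, 2 groups only, the replicate number as a block, a threshold of 0.01, and each array left out. Leaving out 2 doubted libraries together was added after seeing the data.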

Additional observations from a re-analysis of the deposited data

Results flagged for a closer look

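CR2 had 1 high Myc array far from the other 3. It read 7.21 on high Myc replicate 2 and 5.49, 5.65 and 5.60 on replicates 1, 3 and 4, so the gap took up 0.91 of the group's range. Of the 21 member probe sets 0 stood out in this way, and of 33 other named genes 1 did, where chance gives about 1 in 20.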

How the results depend on the processing

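Over the 7 genes, against no Myc, 6 were called lower in high Myc (4 to 7 leaving out each array in turn, 5 to 7 under the other settings) and 5 in low Myc (5 to 6 in both). Between high and low Myc 0 were called, 0 to 3 leaving out each array, 1 with quantile normalization repeated, 1 with genes under a mean log2 of 5 left out, and 3 without both no Myc replicate 1 and high Myc replicate 2. Member probe sets called were 16 for high against no Myc (4 to 18 leaving out each array, 9 at an adjusted p under 0.01, 9 without both libraries), 15 for low against no Myc (5 to 15) and 0 for high against low Myc (0 to 7, and 5 without both). Over all genes the calls were 712 for high against low Myc (228 to 1204 leaving out each array, 406 with only those groups, 143 at 0.01), 4584 for high against no Myc (2714 to 4868, 3048 at 0.01, 2353 without both) and 3919 for low against no Myc (1855 to 4381, 2188 at 0.01, 1976 without both). Between high and low Myc 460 genes were called higher and 252 lower, and 508 and 481 with quantile normalization repeated. The replicate number as a block gave 154 calls between high and low Myc. Same-numbered high and low Myc arrays deviated together with r = 0.251, 0.0299 and -0.314 for replicates 1, 2 and 3. For replicates 1 and 2 r was 0.448 and 0.067 between high and no Myc and 0.465 and 0.102 between low and no Myc. The 3 replicate 1 arrays thus deviated together, but not every pair passed 0.1, so the numbers were not taken to pair the samples. Not every array correlated best with its own number.

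Some uncalled differences changed sign. For high against low Myc the block gave -0.023 for FCRL5 probe set 224404_s_at and 0.0505 for LYN, and the median of probe sets gave 0.0058 for LYN. For low against no Myc the block gave 0.088 for PRKCB. For high against no Myc FYN was -0.080 with quantile normalization repeated and -0.20 without both libraries, where JCHAIN was 0.24. Leaving out each array, high against low Myc ran from -0.013 to 0.79 for FCRL5 (probe set 224406_s_at), -0.11 to 0.11 for 1555799_at, -0.23 to 0.66 for 224404_s_at, -0.18 to 0.74 for 224405_at, -0.21 to 1.09 for 231647_s_at, -0.11 to 0.21 for CCR1, -0.27 to 0.20 for CD2, -0.18 to 0.13 for LYN and -0.055 to 0.32 for PTPN11. High against no Myc ran from -0.17 to 0.42 for CR2, -0.17 to 0.27 for FYN and -0.79 to 0.19 for JCHAIN, and low against no Myc from -0.054 to 0.36 for BLK and -0.50 to 2.25 for MYC. The cause was not tested. The 2 no Myc arrays limit every comparison with that group, and readings near the lowest intensities limit FCRL1 and the FCRL5 probe set 224405_at.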

Other observations

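JCHAIN, the chain that joins IgA and IgM units into polymers, followed neither FCRL4 nor FCRL3. It read 12.40, 9.45, 11.78 and 12.06 in high Myc, 5.24, 8.44 and 7.37 in low Myc, and 11.94 and 11.84 in no Myc, with high Myc replicate 2 the lowest of its group. JCHAIN was lower in low Myc than in no Myc (-4.87 ± 1.01, limma adjusted p = 0.00905) and than in high Myc (high minus low, 4.40 ± 0.84, adjusted p = 0.0289). The second call did not hold in 7 of 9 fits with an array omitted and the first in 2. The fit without no Myc replicate 1 was among these for both calls, with -4.82 for the first and 4.40 for the second. FKBP11, a chaperone of secretory cells, was higher in high than in no Myc (2.32 ± 0.41, adjusted p = 0.00307). Of 9 plasma-cell markers 2 were higher in high Myc and 1 was lower in low Myc than in no Myc, where 14.2% and 8.55% of all genes were. Leaving out each array in turn, these counts ran over 1 to 3 and 0 to 1.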
